A study of Rattus norvegicus with 9 samples.

Results

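Expression of 7 genes of innate nucleic acid sensing, Zbp1, Ifih1, Rig1, Dhx58, Eif2ak2, Mavs and Tlr3, was examined in hepatic macrophages of rats with a narrowed portal vein. The genes were chosen by name, with earlier results of these data known. They were read from probesets to which the platform annotation gives exactly 1 gene symbol. Of the 7 genes, 6 had such a probeset (1 each), among 18166 genes represented in this way. No probeset carried Eif2ak2, so it has no value here. Rig1 is the annotation's symbol for the gene that RefSeq also lists as Ddx58. Tlr3 had a mean log2 signal of 3.97, under the limit of 4.16 set for dim genes, which left 5 of the 7 genes among the 14014 tested.

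The 9 arrays came from 9 male Sprague-Dawley rats in 3 groups of 3. Partial portal vein ligation (PPVL), a calibrated narrowing used as a model of portal hypertension, had been performed 10 days earlier in 1 group and 3 days earlier in another. Sham rats underwent the same operation with no ligature, and the labels give no day for them, no age, and no method for isolating the macrophages. Without a day for sham, an effect of the ligation and one of the time since surgery cannot be told apart.

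RIG-I-like receptors are RNA helicases that recognise viral or misplaced double-stranded RNA in the cytosol. Ifih1 encodes MDA5, Rig1 encodes RIG-I, and Dhx58 encodes LGP2, a relative that lacks the signalling domains and modulates the other receptors. Mavs encodes the mitochondrial adaptor through which RIG-I and MDA5 start interferon synthesis. Zbp1 binds left-handed nucleic acids and can trigger cell death, Eif2ak2 encodes the RNA-activated kinase PKR, and Tlr3 recognises double-stranded RNA in endosomes and not in the cytosol. Several of these sensors are themselves induced by type I interferon, through promoter elements bound by STAT and IRF proteins.

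Promoter windows of 300 bases, from 250 before to 50 after the gene start, were taken from RefSeq (build GRCr8) and matched 4 of the 7 genes: Ifih1, Mavs, Tlr3 and Eif2ak2. They were searched on both strands for the interferon-stimulated response element, spelled GAAA, any 2 bases and GAAA, and for the gamma-activated site, spelled TTC, any 3 bases and GAA. The patterns can overlap. The windows of Ifih1 and Eif2ak2 held the response element once each, and 3.92% of all 33469 promoter windows held it at least once. None of the 4 windows held the gamma-activated site, which 8.87% of all windows held. The windows of Ifih1 (chr3:67683919-67684218, minus strand) and Mavs (chr3:138904562-138904861, plus strand) are shown 5′ to 3′ because Ifih1 passed the test at 3 days and Mavs did not, with the response element in capitals.
Ifih1: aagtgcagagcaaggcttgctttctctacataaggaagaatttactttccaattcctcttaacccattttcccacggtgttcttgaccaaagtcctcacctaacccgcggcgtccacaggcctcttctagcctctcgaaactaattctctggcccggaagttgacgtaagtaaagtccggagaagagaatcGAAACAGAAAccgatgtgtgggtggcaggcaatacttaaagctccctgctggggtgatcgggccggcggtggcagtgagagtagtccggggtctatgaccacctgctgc
Mavs: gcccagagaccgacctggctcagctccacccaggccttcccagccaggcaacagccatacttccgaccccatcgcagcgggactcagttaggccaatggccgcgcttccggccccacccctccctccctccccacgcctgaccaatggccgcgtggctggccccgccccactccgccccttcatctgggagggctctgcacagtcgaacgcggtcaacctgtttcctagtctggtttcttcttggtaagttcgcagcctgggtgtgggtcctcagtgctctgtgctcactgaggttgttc
In Ifih1 the match begins at position -59 relative to the gene start. A match is a description of these letters and not of a bound site. Zbp1, Rig1 and Dhx58 had no window, and a link between the element and the levels of the sensors was not tested.

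Median log2 signals of the arrays lay between 5.21 and 5.26, and correlations across probesets between arrays lay between 0.987 and 0.993. Of 12 macrophage and Kupffer cell genes, Cd68, Csf1r and Adgre1 were the brightest, with mean log2 signals over the 9 arrays of 11.17, 10.25 and 8.55. The other 9 were dim, from 4.26 for Vsig4 to 6.21 for C1qc, and Clec4f, which defines Kupffer cells, had 5.03. Lymphocyte genes ranged widely. T cell genes ran from 7.44 for Skap1 to 10.62 for Cd28, and natural killer cell genes from 7.49 for Eomes to 11.71 for Prf1. B cell genes ran from 5.60 for Cr2 to 9.62 for Fcrla, and recruited monocyte genes from 9.81 for Itgam to 12.85 for Lyz2. At 3 days 401 of the 14014 genes passed the test against sham (2.86%), of which 100 were lower (0.714%). The number of arrays limits the precision, and the labels name no batch.

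At 3 days after PPVL, 3 of the 5 tested genes, Zbp1, Ifih1 and Rig1, fell below sham, each to between 0.702 and 0.776 times the sham level. None rose, and the adaptor Mavs differed from sham by less than its error. In 4 of the 5 genes, Dhx58 being the fourth, all 3-day arrays lay below all sham arrays (8.66% of all tested genes; 10.1% lay higher without overlap). The same 4 had an unadjusted p under 0.05, as 6.39% of all tested genes did in that direction. The median log2 difference over the 5 genes was -0.51, beside -0.01 over all tested genes. Because the genes were chosen with earlier results of these data known, these shares are a description and not a test of the set. In bulk RNA, fewer cells of a type and less RNA per cell cannot be told apart. Differences are given below as log2 differences ± SE (standard error) with n = 3 rats in each group, and adjusted p is that of limma's moderated test with Benjamini-Hochberg adjustment over 14014 genes.

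**Figure D1:**
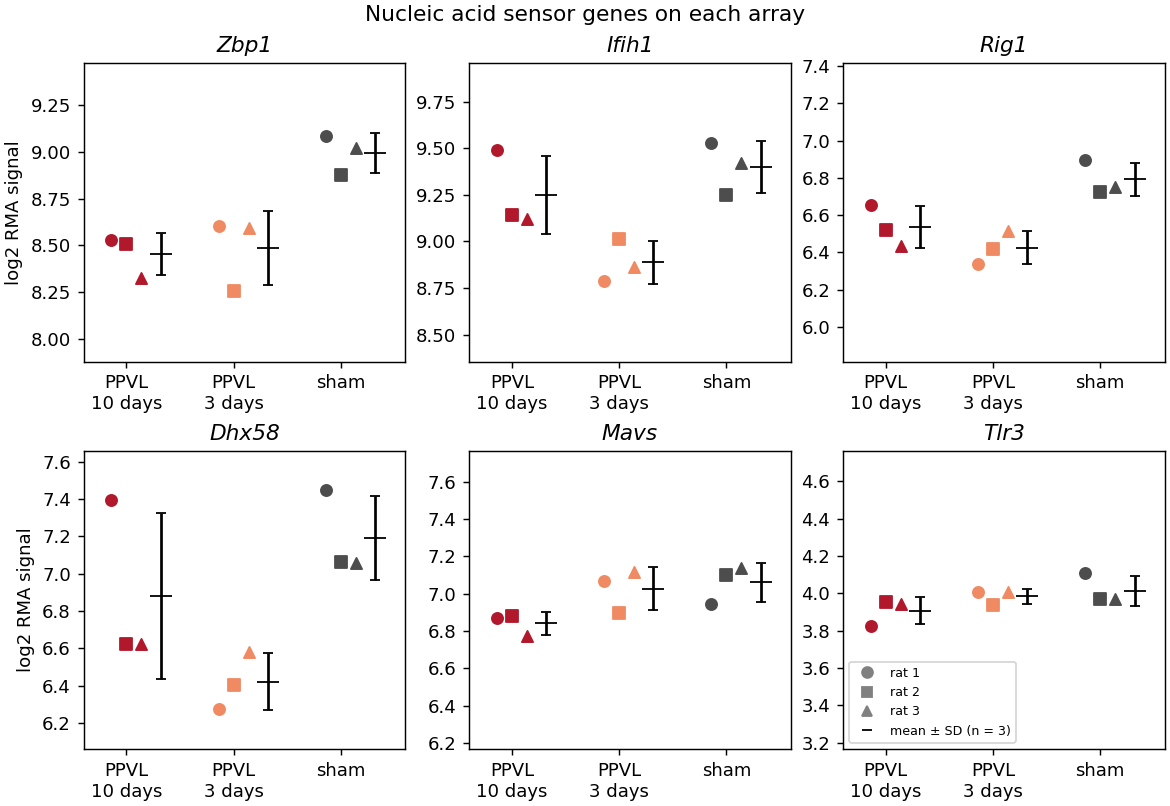
Log2 RMA signal of the 6 measured genes on each array, with 1 point per rat and the mean ± SD (n = 3) beside each group. All 3-day points lie below all sham points for Zbp1, Ifih1, Rig1 and Dhx58, and 10-day rat 1 stands at the sham level for Ifih1 and Dhx58.

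Ifih1, the MDA5 gene, was the brightest of the measured sensors relative to all probesets, at the 92.4th percentile. Its log2 signal was 9.49, 9.14 and 9.12 in rats 1 to 3 at 10 days, 8.79, 9.02 and 8.86 at 3 days, and 9.53, 9.25 and 9.42 in sham rats. The 3-day rats were the lowest in the series, while 10-day rat 1 matched the sham rats and the other two 10-day rats lay below them. At 3 days Ifih1 averaged 8.89 ± 0.12 against 9.40 ± 0.14 in sham (SD, n = 3 each). That difference of -0.51 ± 0.11 passed the test narrowly (adjusted p = 0.0490, limma).

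Rig1, the RIG-I gene, had a log2 signal of 6.65, 6.52 and 6.43 at 10 days, 6.34, 6.42 and 6.51 at 3 days, and 6.89, 6.73 and 6.75 in sham rats. All 6 rats with PPVL lay below all sham rats. At 3 days the mean was 6.42 ± 0.09 against 6.79 ± 0.09 in sham (SD, n = 3 each), a fall by 0.37 ± 0.08 on the log2 scale (adjusted p = 0.0445, limma).

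Dhx58, the LGP2 gene, varied most. Its log2 signal was 7.39, 6.62 and 6.62 at 10 days, 6.28, 6.41 and 6.58 at 3 days, and 7.45, 7.06 and 7.06 in sham rats. The 3-day rats lay below all sham rats, and 10-day rat 1 stood well above the other 10-day rats, at the level of sham rat 1. The 3-day difference of -0.77 ± 0.20 was the largest among the measured genes, with a 95% interval from -1.22 to -0.32, but it did not pass the test (adjusted p = 0.0828, limma). Its residual SD of 0.30 was larger than that of 97.6% of tested genes, where the median was 0.108.

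Zbp1 was low at both days. The log2 signal was 8.53, 8.51 and 8.33 at 10 days, 8.60, 8.25 and 8.59 at 3 days, and 9.08, 8.88 and 9.02 in sham rats. No rat with PPVL reached the lowest sham rat. At 3 days the difference from sham was -0.51 ± 0.11 (adjusted p = 0.0371, limma), and at 10 days it was -0.54 ± 0.11, which did not pass (adjusted p = 0.0558). Over the 3 groups together Zbp1 was the sole gene of the 5 to pass the moderated F test (adjusted p = 0.0427), which 2.35% of tested genes passed. That call was kept in 1 of the 9 fits without 1 array, the fit without 3-day rat 2.

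Neither the adaptor gene nor the endosomal receptor gene passed a test at either day. Mavs had a log2 signal of 6.87, 6.88 and 6.77 at 10 days, 7.07, 6.90 and 7.12 at 3 days, and 6.94, 7.10 and 7.14 in sham rats. The 3-day and sham rats overlapped, and the 10-day rats were the lowest. The 3-day difference was -0.03 ± 0.08 with a 95% interval from -0.21 to 0.15, and the 10-day difference of -0.22 ± 0.08 did not pass (adjusted p = 0.213, limma). Tlr3 lay between 3.82 and 3.95 at 10 days, between 3.94 and 4.01 at 3 days, and between 3.97 and 4.11 in sham rats. Without the limit on dim genes, Tlr3 differed from sham by -0.03 ± 0.07 at 3 days (adjusted p = 0.908, limma), and at this signal a difference may not be measurable.

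**Figure D2:**
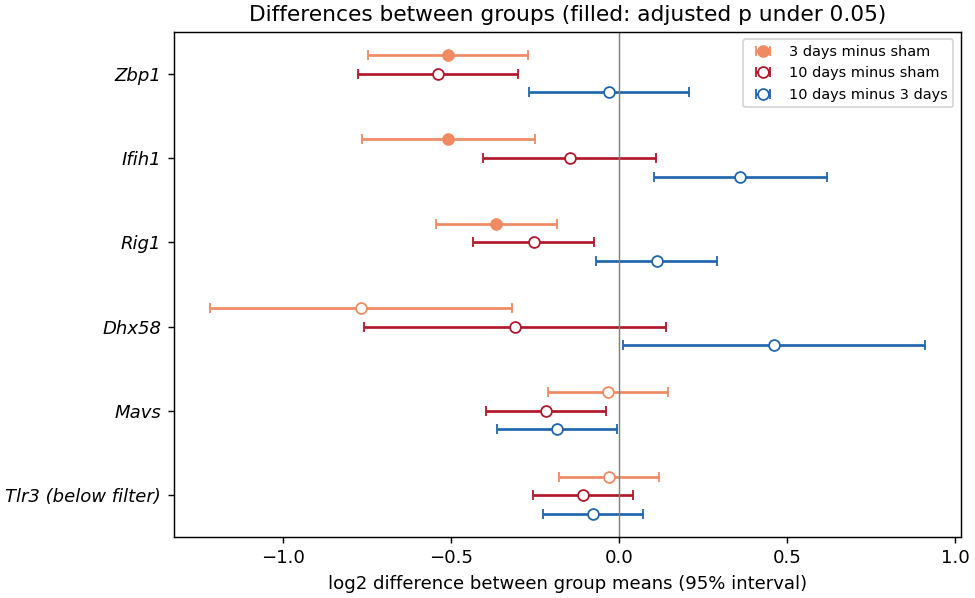
Log2 differences between group means with 95% intervals for 3 days minus sham, 10 days minus sham and 10 days minus 3 days, and filled points where the adjusted p is under 0.05. The 3 filled points are those of Zbp1, Ifih1 and Rig1 at 3 days, and Tlr3 is drawn from the fit without the limit on dim genes.

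At 10 days none of the 5 genes passed the test against sham, where 0.735% of tested genes were called in either direction and 0.243% lower. Of the 5, Zbp1, Rig1 and Mavs (3 genes) had an unadjusted p under 0.05, as 8.21% of tested genes did in that direction (limma). All 5 differences were below 0, as were 50.2% of those of all tested genes, and their median was -0.25. The groups did not overlap for Zbp1, Rig1 and Mavs, beside 11.1% of all tested genes that lay lower without overlap and 9.88% that lay higher. Rig1 differed by -0.25 ± 0.08 (adjusted p = 0.162, limma), Ifih1 by -0.15 ± 0.11 (adjusted p = 0.574) and Dhx58 by -0.31 ± 0.20 (adjusted p = 0.492). Without 10-day rat 1 the differences of Ifih1 and Dhx58 were -0.27 and -0.57, and neither passed (adjusted p = 0.310 and 0.175, limma). The comparisons of each day with sham share the sham rats.

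Between the days no gene of the 5 passed the test, which 0.0714% of tested genes passed in either direction and 0.0214% upward. Ifih1, Dhx58 and Mavs (3 genes) had an unadjusted p under 0.05, as 11.3% of all tested genes did (6.22% downward, limma). Of the 5 differences 2 were below 0, beside 48.1% over all tested genes. Ifih1 was higher at 10 days by 0.36 ± 0.11 (95% interval from 0.10 to 0.62, adjusted p = 0.314, limma), and all 10-day rats lay above all 3-day rats. Dhx58 was higher by 0.46 ± 0.20 (adjusted p = 0.430), and without 10-day rat 1 that difference was 0.20. In both genes the groups were separate, beside 6.90% of tested genes that were higher at 10 days without overlap. Mavs differed by -0.19 ± 0.08 (adjusted p = 0.422) with no overlap, beside 7.74% of tested genes that lay lower in this way. Rig1 differed by 0.11 ± 0.08 (adjusted p = 0.619) and Zbp1 by -0.03 ± 0.11 (adjusted p = 0.934). The interval for Zbp1 ran from -0.27 to 0.21, so its level at 10 days was not resolved from that at 3 days. A change in level between the days was not shown for any of the 5 genes.

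The calls at 3 days changed with the arrays, groups and features that entered the fit. Leaving out 10-day rat 2, which enters neither the 3-day nor the sham mean, also left no sensor called. Fits with fewer arrays also have fewer residual degrees of freedom, and the reason for a lost call was not tested. None of the 3 genes passed with all probesets in the adjustment or with only the 2 groups fitted (adjusted p = 0.139 and 0.0964 for Zbp1, limma). Zbp1 kept its call in 2 of the 9 fits that left out 1 array, those without 3-day rat 1 and without 10-day rat 3, with adjusted p up to 0.120 (limma). Ifih1 and Rig1 each kept theirs in the fit without 10-day rat 1 alone, with adjusted p up to 0.154 and 0.137. In that fit Dhx58 passed too (adjusted p = 0.0205), while Zbp1 did not (adjusted p = 0.0562). The differences themselves kept their sign in all 9 fits, between -0.57 and -0.40 for Zbp1, between -0.58 and -0.44 for Ifih1, between -0.41 and -0.32 for Rig1 and between -0.85 and -0.64 for Dhx58.

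**Figure D3:**
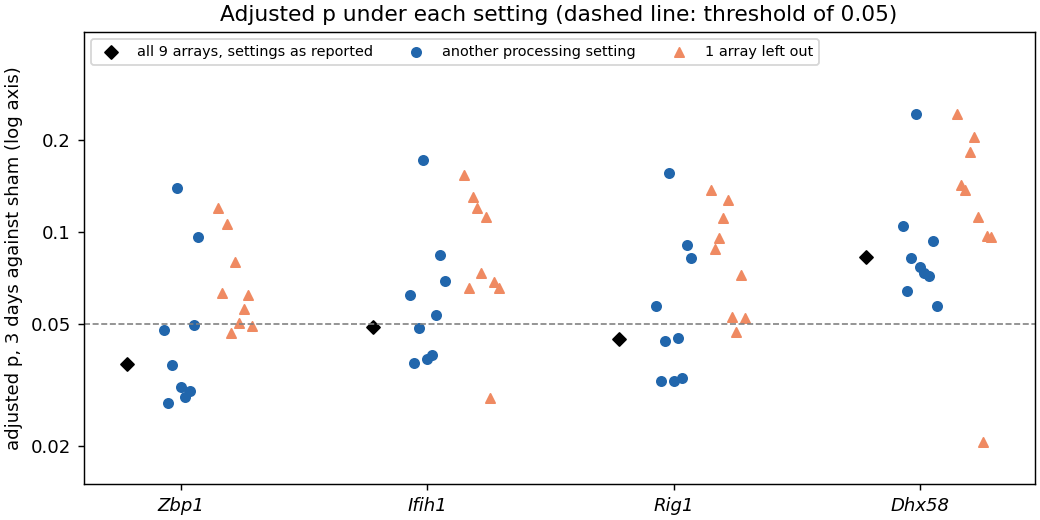
Adjusted p for 3 days against sham on a log axis for Zbp1, Ifih1, Rig1 and Dhx58, with diamonds for the fit reported, circles for 9 other processing settings and triangles for the 9 fits that left out 1 array. Most triangles lie above the dashed line at 0.05, and Dhx58 is under it in 1 fit.

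Across the 9 arrays the RIG-I-like receptors varied together. Pearson's r was 0.94 for Ifih1 and Dhx58, 0.92 for Rig1 and Dhx58, and 0.86 for Ifih1 and Rig1. Zbp1 had r = 0.84 with Rig1 and 0.55 with Ifih1, and Mavs had r between -0.17 and 0.60 with the 4 sensors. These coefficients describe 9 arrays that share the group differences. Sham rat 1 had the highest signal of the 9 for Zbp1, Ifih1, Rig1 and Dhx58, while 3-day rat 1 had the lowest for the 3 RIG-I-like receptors and 3-day rat 2 the lowest for Zbp1.

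The genes whose profiles over the 9 arrays were most like each sensor were found by Pearson's r, taking 2 per sensor. They were Usp18, a protease that removes ISG15, and Eva1b for Ifih1 (r = 0.97 and 0.96), and Xaf1 and Ifi44 for Rig1 (r = 0.97 and 0.95). For Dhx58 they were Znfx1, a helicase-related gene, and the RNA-editing enzyme gene Adar (r = 0.98 and 0.96). Zbp1 was most like Rpl36l3 and the interleukin receptor gene Il21r (r = 0.98 and 0.96), and Mavs most like Zfp276 and Tbcc (r = 0.96 and 0.94). The dim Tlr3 was most like Fam98a and Sp4 (r = 0.97 each). With 9 arrays and 14014 genes such coefficients are a description of these arrays.

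Among 16 tested partners of cytosolic RNA sensing none passed the test at 3 days, with 6 lower and 2 higher at an unadjusted p under 0.05 (limma). Over all tested genes 15.5% had such a p at 3 days, 6.39% lower, which is the background for the counts of each list below. The median difference was -0.24, and 13 of the 16 were below 0, beside 55.0% of all tested genes. The oligoadenylate synthetase gene Oas1b, whose relatives activate an RNA-cutting enzyme, had 6.15, 5.88 and 6.42 at 3 days against 7.53, 6.71 and 6.82 in sham. Its difference of -0.88 ± 0.25 did not pass (adjusted p = 0.105, limma). Its paralogue Oas1k pointed the other way, at 0.98 ± 0.24 (adjusted p = 0.0623, limma). Probesets of such closely related genes can share signal, so each of these values is uncertain.

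Cytosolic DNA sensing genes were divided evenly in direction at 3 days, with 5 differences below 0 and 5 above. In the DNA list none of 10 tested genes passed at 3 days, 2 were higher and 1 lower at an unadjusted p under 0.05 (limma), and the median difference was 0.02. Samhd1, which depletes nucleotides, had 11.07, 10.96 and 11.11 at 10 days against 10.46, 10.42 and 10.66 in sham. It rose by 0.53 ± 0.09 (adjusted p = 0.0449, limma), where 0.492% of tested genes were called higher. That call was kept in 2 of 9 fits without 1 array, which left out 3-day rat 1 or 3, and its adjusted p reached 0.153 without 10-day rat 1. Of 6 tested endosomal receptor genes none passed at either day, with 1 higher and 1 lower at an unadjusted p under 0.05 at 3 days (limma). At 3 days 5 of the 6 differences were above 0, with a median of 0.15. Myd88, the adaptor of most Toll-like receptors, had a difference of -0.23 ± 0.06 (adjusted p = 0.0927, limma) and Unc93b1, which carries these receptors to endosomes, 0.41 ± 0.14 (adjusted p = 0.182).

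Downstream of Mavs, none of 19 tested signalling genes passed at 3 days, with 1 higher and 1 lower at an unadjusted p under 0.05 (limma), and their median difference was -0.01. Irf7, an interferon-inducible transcription factor, had 8.50, 9.14 and 9.26 at 3 days against 9.91, 9.78 and 9.92 in sham, so the groups were separate. Its difference of -0.91 ± 0.26 did not pass (adjusted p = 0.111, limma), and Tbkbp1 differed by 0.38 ± 0.11 (adjusted p = 0.102). Of 10 tested inhibitors of Mavs signalling none passed, with 1 lower at an unadjusted p under 0.05 (limma). Cyld, a deubiquitinase, differed by -0.21 ± 0.09 and Otud5 by -0.13 ± 0.07.

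Of 7 partners of Zbp1 in cell death, the inflammasome gene Nlrp3 rose at 3 days, with 10.61, 10.49 and 10.08 against 9.55, 9.79 and 9.89 in sham. Its difference was 0.65 ± 0.13 (adjusted p = 0.0355, limma), beside 2.15% of tested genes called higher, and it passed in 1 of 9 fits without 1 array (without 3-day rat 3, adjusted p = 0.00838). The other 6 differences had a p over 0.05 before adjustment. In the list of Eif2ak2's relatives and pathway none of 13 genes passed at 3 days, with 1 higher and 1 lower at an unadjusted p under 0.05 (limma). Tarbp2, an inhibitor of that kinase, differed by -0.21 ± 0.08 and the stress gene Atf3 by 0.28 ± 0.11.

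Of 11 tested genes of type I interferon signalling none passed at 3 days, with 1 higher and 2 lower at an unadjusted p under 0.05 (limma). Usp18, which damps the interferon receptor, had 8.42, 8.72 and 8.63 at 3 days against 9.41, 9.04 and 9.42 in sham, a difference of -0.70 ± 0.19 (adjusted p = 0.0994, limma). Socs3, a cytokine signalling inhibitor, differed by 0.28 ± 0.10. Of 17 interferon-stimulated effector genes none passed, 9 were lower at an unadjusted p under 0.05 (limma), and 16 differences were below 0 with a median of -0.47. Over all tested genes 6.39% were lower at such a p and 55.0% were below 0. Without 10-day rat 1, 5 of the 17 passed, and 2 passed with array weights or with the filter at the 50th percentile. Rsad2, which encodes the antiviral enzyme viperin, had -0.88 ± 0.20 (adjusted p = 0.0520, limma) and passed in 5 of 9 other processing settings and without 10-day rat 1 (adjusted p = 0.00563). Ifi44 had -0.45 ± 0.11 (adjusted p = 0.0646). The response element that the Ifih1 window holds, present in 3.92% of all promoter windows, was in 9 of the 14 windows of these effectors. It was in 5 of 11 windows of RNA sensing partners, 2 of 8 of type I interferon signalling, 1 of 15 of Mavs signalling and 0 of 9 of DNA sensing. Endosomal receptors (1 of 5), Zbp1 partners (1 of 6), inhibitors of Mavs signalling (0 of 7) and the Eif2ak2 list (0 of 12) completed the lists. The effectors were listed as interferon-stimulated genes, so their share is a description and not a test. A link between the element and the differences was not tested.

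**Figure D4:**
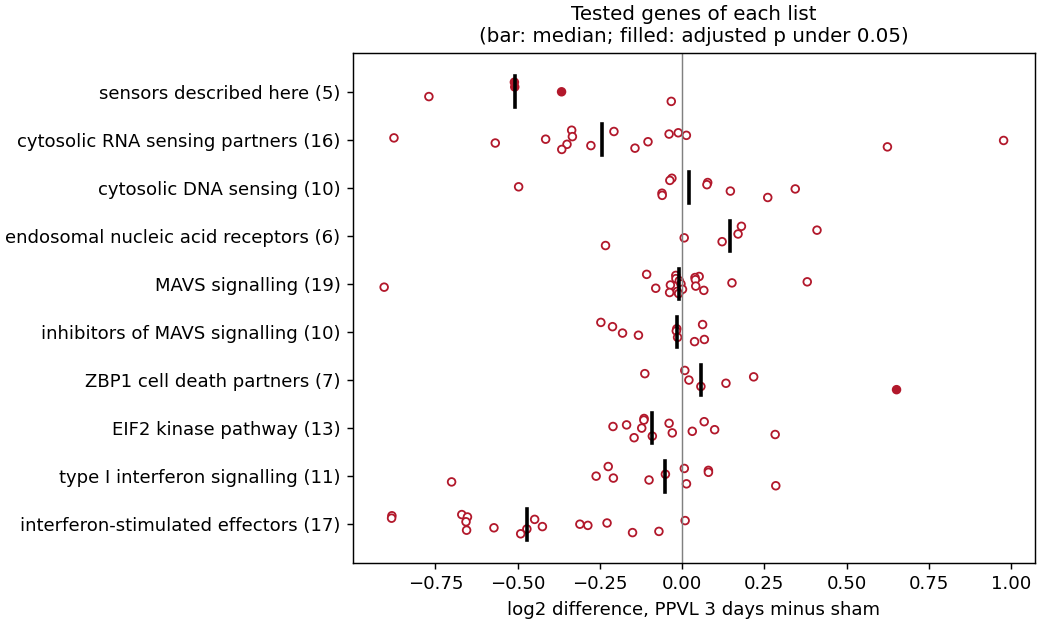
Log2 differences of 3 days minus sham for each tested gene of the sensors and of 9 lists of pathway genes, with the number tested in brackets, a bar at each median and filled points where the adjusted p is under 0.05. The medians of the sensors and of the interferon-stimulated effectors lie at -0.51 and -0.47, and that of Mavs signalling at -0.01.

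The mean level of the 17 effectors was 8.20, 7.72 and 7.71 at 10 days, 7.43, 7.73 and 7.78 at 3 days, and 8.17, 8.01 and 8.13 in sham rats. Thus 10-day rat 1 was at the sham level and the other 10-day rats were within the range of the 3-day rats. For Dhx58 the other 10-day rats were likewise near the 3-day rats, and for Ifih1 they lay between the 3-day and the sham rats.

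**Figure D5:**
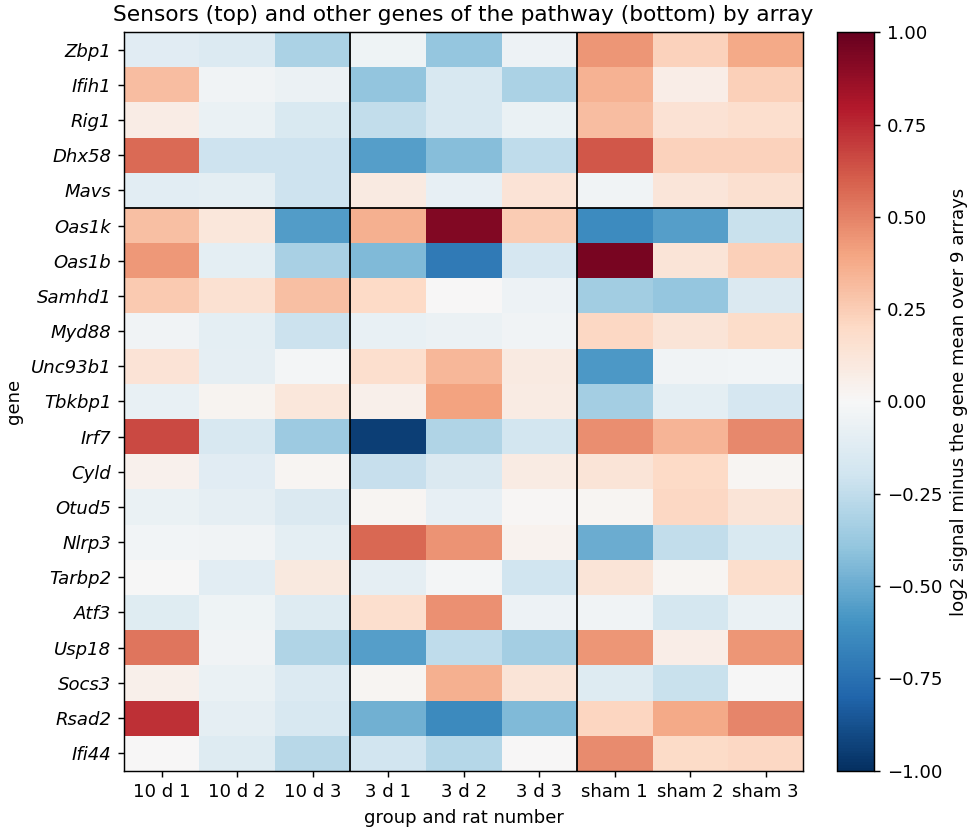
Log2 signal minus each gene's mean over the 9 arrays, for the 5 tested sensors (above the line) and the 16 genes named from the pathway lists (below), with 10-day, 3-day and sham rats from left to right. Red is above and blue below the gene's mean. Genes that are red in 10-day rat 1 include Ifih1, Dhx58, Irf7, Usp18, Oas1b and Rsad2, and also Oas1k and Samhd1.

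Marker genes of several cell types also differed between the 3-day and sham rats, where 0.714% of all tested genes were called lower and 2.15% higher. The mean level of 7 plasmacytoid dendritic cell genes, a cell type known for interferon production, averaged 7.79 at 3 days (at most 7.93) and 8.18 in sham (at most 8.31). All 3-day rats lay below all sham rats, and 2 of the 7 genes fell (Runx2 and Irf8). Siglech, which defines these cells, had no probeset of its own symbol, and whether the 7 genes mark these cells alone was not tested. For 7 conventional dendritic cell genes the level lay between 6.88 and 6.96 at 3 days and between 7.19 and 7.32 in sham, and 3 of the 7 fell, namely Flt3 (-1.12 ± 0.18), Clec9a (-0.67 ± 0.11) and Cadm1. Batf3 (0.30 ± 0.11) and Cd83 (0.21 ± 0.09) of the same list lay higher at 3 days without overlap and did not pass. Cadm1 and Batf3 are named after their values were seen. The 11 T cell genes lay between 8.83 and 9.11 at 3 days and between 9.17 and 9.43 in sham, and none passed, with 10 lower at an unadjusted p under 0.05 (limma), beside 6.39% of all tested genes. At 10 days these T cell genes lay between 8.79 and 8.95. All 11 were lower than sham without overlap, beside 11.1% of all tested genes. Of them 2 passed (Cd5 and Cd6, named after their values were seen), where 0.243% of tested genes were called lower. Natural killer cell genes were low at 10 days too, with 8 of 9 lower than sham without overlap and none past the test. Their median difference was -0.42, beside -0.46 for the T cell genes. The 7 recruited monocyte genes lay between 11.13 and 11.38 at 3 days and between 10.37 and 10.62 in sham, and 6 rose. The 7 B cell genes lay between 8.03 and 8.50 at 3 days and between 7.80 and 7.86 in sham, and 2 rose (Cr2 and Vpreb3, also named after their values were seen). Of 8 tested neutrophil genes Csf3r rose (1.04 ± 0.21, named likewise), and 7 differences were above 0. The 12 macrophage and Kupffer cell genes had 6.32, 6.34 and 6.92 in 3-day rats 1 to 3, above all sham rats, which averaged 6.15. None of the 12 passed, with 10 above 0 and 7 higher at an unadjusted p under 0.05 (limma). The part of these cells in the levels of the sensors was not tested.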

How the data were processed

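Each of the 9 rats gave 1 biotin-labelled macrophage RNA sample, hybridised to an Affymetrix array of 1 colour. The deposited log2 values were produced with RMA (robust multi-array average) and Transcriptome Analysis Console, per the submitters' processing notes, which name no versions. RMA equalises the distributions of the arrays, so a shift shared by most genes would not be seen. The 36685 probesets had no missing values, and no further normalization was applied. Pairs of arrays shared between 1266 and 1903 identical values. Among the listed genes, Tradd, Itch and Eif2ak3 each had the same value in all sham rats. The reason for these ties and their effect on the tests were not tested.

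Probesets with 1 symbol in the platform annotation (18511) were used, the one with the highest mean standing for its gene, and 575 with several symbols and 17599 with none were left out. A gene was tested if its mean reached 4.16, the 30th percentile over the probesets. Linear models were fitted to all 9 arrays with limma 3.58.1 in R 4.3.3 (6 residual and 3.59 prior degrees of freedom, 2-sided, Benjamini-Hochberg adjustment, threshold 0.05). An exact permutation test of 3 rats against 3 cannot go below p = 0.1. The procedure was tested on simulated data. The labels describe separate rats, and the replicate numbers do not pair them. Deviations of same-numbered rats correlated between -0.095 and 0.084 over 9 pairs, beside -0.127 to 0.167 over 18 pairs with different numbers.

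The genes and lists were chosen with earlier results of these data known. Named were all sensors, from each pathway list up to 4 genes past the test per comparison or else the 2 with the smallest p at 3 days, 2 genes most like each sensor, and the brightest markers with a few fixed ones. The planned description of the proteins was not made. Alternatives were array weights, quantile normalization, trend with robust moderation, no filter or one at the 50th percentile, averaged probesets, every probeset, a replicate block, the 2 compared groups alone, and without each array.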

Additional observations from a re-analysis of the deposited data

How the results depend on the processing

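At 3 days against sham, 3 sensors were called. The count was 1 with no filter, 0 with all probesets, 1 with the replicate block, 0 with only the 2 groups compared, and 0 to 3 without 1 array; the differences of Zbp1, Ifih1, Rig1 and Dhx58 stayed below 0 in all of these fits. Adjustment over more features or fewer residual degrees of freedom is part of each of these settings. Over all 9 other processing settings, the 3-day call was kept in 7 for Zbp1, 5 for Rig1 and 4 for Ifih1. At 10 days against sham the count of 0 became 1 (Zbp1) with the filter at the 50th percentile (adjusted p = 0.0414, limma) and with trend and robust moderation (adjusted p = 0.0410), and it was 0 to 1 without 1 array. Between the days it was 0 throughout these settings. The count of interferon-stimulated effectors called at 3 days (0) was 0 to 5 without 1 array and 0 to 2 in the other settings. In the F test the count of 1 became 0 with no filter, with all probesets and with the replicate block, and it was 0 to 1 without 1 array (0 in 8 of 9 such fits).

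Of all genes tested, 401 were called at 3 days, against 107 with all probesets, 264 with the replicate block, 134 with only the 2 groups compared, 190 to 327 without 1 array, and up to 530 in the other settings (array weights). At 10 days 103 were called, against 0 with no filter, with all probesets and with the replicate block, 61 with only the 2 groups compared, 173 with the filter at the 50th percentile and with trend and robust moderation, 170 with quantile normalization, 197 with array weights, and 0 to 140 without 1 array. Between the days 10 were called, against 0 with all probesets and with the replicate block, 3 with only the 2 groups compared, and 0 to 18 without 1 array. The samples share only a number, and the block moved these counts as given.

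Some differences near 0 changed sign. For Zbp1 between the days, -0.03 became 0.014 with quantile normalization and 0.00521 with array weights, and it ranged from -0.14 to 0.033 without 1 array. For Mavs at 3 days the range without 1 array was -0.091 to 0.032. For Atf3 at 10 days -0.0049 became 0.024 with array weights and ranged from -0.047 to 0.024 without 1 array, and for Ifi44 between the days it ranged from -0.047 to 0.11. The cause was not tested. Signal over background limits Tlr3 and Clec4f.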

Other observations

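The courses of Ifih1 and Zbp1 were set side by side after their values had been seen, as the centred log2 value of Ifih1 minus that of Zbp1 on each array. This gap was 0.43, 0.099 and 0.26 at 10 days, -0.35, 0.22 and -0.26 at 3 days, and -0.093, -0.16 and -0.14 in sham rats. Its mean was 0.26 ± 0.16 at 10 days, -0.13 ± 0.31 at 3 days and -0.13 ± 0.04 in sham (SD, n = 3 each). All 10-day rats lay above all sham rats, and the 10-day and 3-day rats overlapped. Because the pair of genes was chosen for this difference, the values are a description only.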
